A study of Mus musculus with 80 samples.

Results

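The comparison asked whether the blood transcriptome of mice answers 2.8 Gy differently when the dose is given at once and when it is spread over days. It takes the response to acute exposure at day 3 (irradiated minus sham) and subtracts the response to protracted exposure at day 3 (irradiated minus sham). All 21 libraries of these 4 groups were used, of 80 in the series. The Acute 2.8 Gy group had 3 libraries and received 2.8 Gy at 0.73 Gy per minute. The Acute sham group had 6 libraries and received 0 Gy. The VarDR 2.8 Gy group had 6 libraries and accumulated 2.8 Gy over 3 days at a variable dose rate, labelled 0.77 Gy per day, in external exposure that imitates internal 137Cs. The VarDR sham group had 6 libraries and received 0 Gy. All were female C57BL/6 mice sampled at day 3, and the labels name no other agent or allele. The RNA was total RNA of whole blood drawn from the heart, cleared of globin transcripts and depleted of ribosomal RNA before stranded sequencing, so haemoglobin values are those left after clearing.

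Whole blood RNA is a mixture. Reticulocytes, the youngest circulating red cells, carry messages for haemoglobin, haem synthesis and the membrane skeleton, and lose them as they mature, so their level in blood depends on continued output from the bone marrow. Lymphocytes, and B cells above all, are among the most radiosensitive blood cells, while platelets carry RNA inherited from megakaryocytes. DNA damage stabilises p53, a transcription factor that switches on genes of cell cycle arrest (Cdkn1a, Ccng1), cell death (Bax, Bbc3) and its own feedback control (Mdm2). In bulk blood, fewer cells of a type and less RNA per cell cannot be told apart. Dose rate and time since the dose cannot be told apart either, because the acute mice were sampled 3 days after a single exposure and the protracted mice at the end of theirs, and each arm had its own shams.

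The libraries were put on a common scale before testing, since the deposited values of the Acute 2.8 Gy libraries stood 2.05-fold above those of their shams at the median gene, against 1.00-fold for VarDR 2.8 Gy over VarDR sham. Values below are the rescaled normalised read counts. The deposited columns summed, in units of 1e6, to 23.2 to 25.6 in Acute 2.8 Gy, 25.1 to 31.0 in Acute sham, 17.1 to 35.4 in VarDR 2.8 Gy and 34.5 to 68.5 in VarDR sham. The number of genes above 0 was 24589 to 27535 in Acute 2.8 Gy, against 16684 to 22783 in Acute sham, and 18116 to 23673 in VarDR 2.8 Gy, against 18692 to 23757 in VarDR sham. Markers of red cells, platelets, B, T and natural killer cells, neutrophils and monocytes were present. Lung markers held at most 0.000477% of any library, although the deposited sheet's title names lung. Liver markers, which blood should lack, held 0.181%, 2.60% and 2.93% of the Acute 2.8 Gy libraries and 0.00135% to 0.131% of the Acute shams. They held 0.0255% to 2.48% of the VarDR 2.8 Gy libraries and 0.0161% to 2.86% of the VarDR shams. Of the 21 libraries, 6 exceeded 0.5% (Acute 2.8 Gy replicates 1 and 2, VarDR 2.8 Gy replicates 1 and 5, VarDR sham replicates 1 and 3). Results are therefore also given with the liver marker share as a covariate, and without these 6 libraries, which leaves 1 Acute 2.8 Gy library and assumes that it varies like the other groups.

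**Figure D1:**
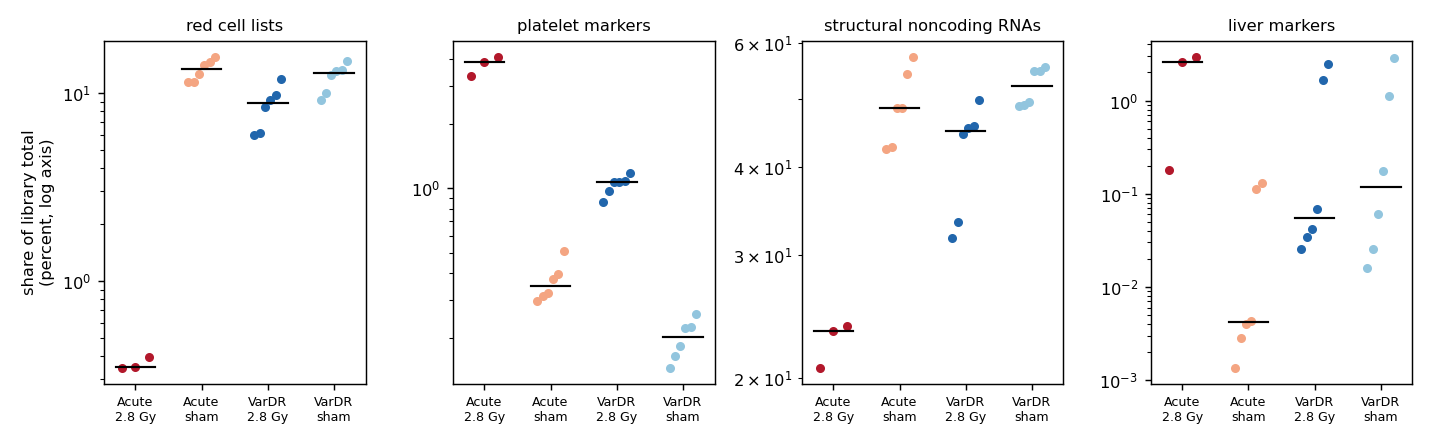
Share of all rescaled reads, in percent on a log axis, held by the red cell, platelet, structural noncoding and liver lists in each of the 21 libraries, grouped as Acute 2.8 Gy, Acute sham, VarDR 2.8 Gy and VarDR sham. The red cell lists hold 0.344% to 0.393% of the Acute 2.8 Gy libraries, below every other library, and the liver markers run between 0.00135% and 2.93%.

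Of 17368 genes tested, 492 (2.83%) responded differently to the 2 exposures by limma with Benjamini-Hochberg adjustment over all genes at 0.05, and 423 of them (2.44%) were lower and 69 (0.397%) higher in the acute response. The count of 69 was 24, 34 and 36 without Acute 2.8 Gy replicates 1, 2 and 3, 118 without VarDR sham replicate 2, 125 with no filter on low values and 139 with all 14 groups in the fit. This count was higher still with quantile normalisation, with library weights and on the deposited scale, as given in the section on processing below. The median difference over all genes was 0.14 on the log2 scale of value plus 1, and the median standard error was 0.47. The acute response alone passed for 1695 genes higher (9.76%) and 1922 lower (11.1%) than Acute sham. The VarDR response passed for 1038 genes higher (5.98%) and 1132 lower (6.52%) than VarDR sham. The irradiated groups compared directly differed in 1296 genes (7.46%), among them 441 of the 492. The 2 sham groups differed in 0 genes by limma, with 2638 at an unadjusted p under 0.05. The part of the difference that comes from the shams was larger than the part from the irradiated groups for 19 of the 492 genes. These were 11 of the 69 higher genes and 8 of the 423 lower ones.

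The genes that fell more after acute exposure mostly fell after both. Of the 423, 235 fell in both arms, with a median response of -3.90 in the acute arm and -1.27 in the VarDR arm. Another 184 passed as lower in the acute arm alone, with medians of -1.90 (acute) and -0.24 (VarDR). Among the 69 higher genes, 19 rose in both arms, 42 passed as higher in the acute arm alone, and 3 were higher after acute and lower after protracted exposure. Without the 6 libraries rich in liver markers, 141 genes differed, 3 higher and 138 lower, and with the liver share as covariate 230 differed, 48 higher and 182 lower. Of the 69 higher genes 3 still passed without those libraries and 17 with the covariate, and of the 423 lower genes 132 and 178 did. On the deposited scale the median difference over all genes was 1.14 in place of 0.14, and 8990 genes differed, 8773 of them higher, so each direction below is relative to the common scale, and groups whose direction turns on the deposited scale are named as such. The scatter of the 2 responses shows the genes that passed.

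**Figure D2:**
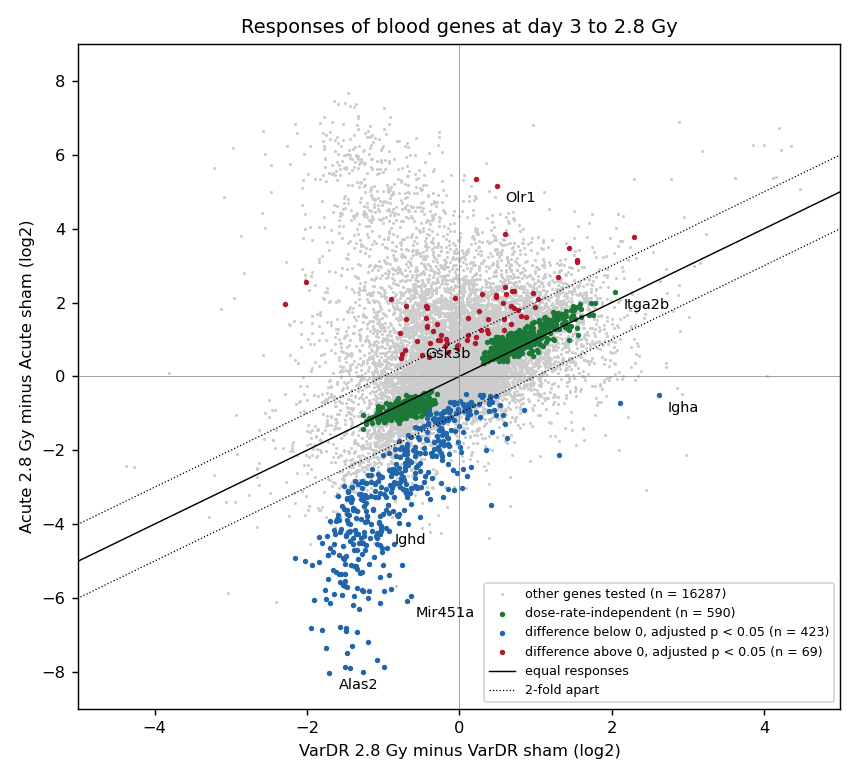
Response to acute exposure (vertical) against response to VarDR exposure (horizontal), both irradiated minus sham on the log2 scale, for all 17368 genes tested, with genes that passed in the difference and dose-rate-independent genes coloured. Points far below the diagonal are genes such as Alas2, at -8.03 after acute and -1.71 after VarDR exposure.

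Among the genes that passed in the difference, the 6 lowest were red cell genes, the 4 haemoglobin genes, Bpgm and Alas2. Of 47 tested genes in the 5 red cell lists, 29 fell more after acute exposure and 0 rose more, with a median difference of -2.75 against 0.14 over all genes. In the acute arm 38 fell and 3 rose (median -4.22), and in the VarDR arm 26 fell and 2 rose (median -1.07). Counts of 24 and 22 genes lower in the difference were found with the liver covariate and without the liver-rich libraries. The lists together held 0.344% to 0.393% of reads in Acute 2.8 Gy, against 11.4% to 15.6% in Acute sham, and 6.00% to 11.9% in VarDR 2.8 Gy, against 9.14% to 14.7% in VarDR sham. The acute groups did not overlap, while the VarDR groups did. On the deposited scale 25 of the 47 were lower and 8 higher in the difference.

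Alas2 encodes the first, rate-limiting enzyme of haem synthesis in red cells and lies on the X chromosome (chrX:150547375-150570638, plus strand, GRCm38). Its value was 3293, 3600 and 5702 in the Acute 2.8 Gy libraries, against 834680 to 1451864 (median 1109678) in Acute sham. It was 215321 to 880193 (median 573526) in VarDR 2.8 Gy, against 791807 to 2550640 (median 1459393) in VarDR sham. All 3 acute libraries were far below every other library, and the VarDR groups overlapped only at the lowest sham. VarDR 2.8 Gy replicates 1 and 3 stood lowest, at 215321 and 216370, with 2.48% and 0.0255% liver markers. The acute response was -8.03 ± 0.42 (SE, adjusted p = 9.89e-12), the VarDR response -1.71 ± 0.34 (adjusted p = 0.00169) and their difference -6.32 ± 0.54 (adjusted p = 1.33e-07, 95% interval -7.44 to -5.21). The difference was -6.54 without the liver-rich libraries.

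The enzyme at the end of the same pathway is Fech, ferrochelatase, which inserts iron into the haem ring. It had values of 1208, 1424 and 1915 in Acute 2.8 Gy, against 109098 to 276520 (median 168491) in Acute sham. It had 39721 to 161497 (median 98200) in VarDR 2.8 Gy, against 130846 to 441964 (median 215042) in VarDR sham. Again the acute groups were far apart and the VarDR groups overlapped. The difference was -5.32 ± 0.53 (adjusted p = 1.57e-06). Of the 10 haem synthesis genes, 4 fell more after acute exposure (median -1.01), 7 fell in the acute arm and 5 in the VarDR arm, while on the deposited scale 3 were lower and 3 higher in the difference (median 0.01).

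All 4 haemoglobin genes fell more after acute exposure (median -6.67), all 4 fell in the acute arm and 3 in the VarDR arm. Hbb-bs, an adult beta globin gene, had 1325, 1529 and 1853 in Acute 2.8 Gy, against 312349 to 620485 (median 372884) in Acute sham, and 70825 to 284064 (median 174116) in VarDR 2.8 Gy, against 229653 to 828814 (median 312719) in VarDR sham. Its difference was -6.73 ± 0.54 (adjusted p = 8.6e-08). Hba-a1, an adult alpha globin gene, had a difference of -6.88 ± 0.55 (adjusted p = 8.6e-08), with a VarDR response of -0.99 that did not pass (adjusted p = 0.0684). Hba-a1 and Hba-a2 are near-identical copies, so the split of reads between them is uncertain. No haemoglobin gene passed in the VarDR arm when the libraries were quantile normalised.

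Membrane and late reticulocyte genes followed. Of 16 red cell membrane genes, 13 fell more after acute exposure (median -3.36), 15 fell in the acute arm and 11 in the VarDR arm. Epb42, protein 4.2 of the membrane skeleton, differed by -4.86 ± 0.54 (adjusted p = 9.9e-06), and its VarDR response of -0.90 did not pass (adjusted p = 0.0987). Dmtn, dematin, which bundles actin in the skeleton, differed by -3.46 ± 0.38 (adjusted p = 5e-06). Of 9 late reticulocyte genes, 7 fell more after acute exposure (median -3.45), all 9 fell in the acute arm and 6 in the VarDR arm. Bpgm, which makes the 2,3-bisphosphoglycerate that lowers the oxygen affinity of haemoglobin, had 987, 1050 and 1384 in Acute 2.8 Gy, against 193251 to 367680 (median 277036) in Acute sham, and 60625 to 248284 (median 150261) in VarDR 2.8 Gy, against 210144 to 635340 (median 338978) in VarDR sham. Its difference was -6.37 ± 0.51 (adjusted p = 8.6e-08).

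The 8 lowest differences outside the haemoglobin genes also included the ubiquitin-conjugating enzyme gene Ube2l6 (-5.60), the mitochondrial carrier gene Slc25a39 (-5.42), Tent5c, a poly(A) polymerase gene (-5.59), Cdr2 (-5.98) and Fam220a (-6.00). Each fell in both arms, with VarDR responses between -1.75 (Ube2l6) and -1.21 (Cdr2). The eighth was Mir451a, the locus of a microRNA that accumulates during red cell maturation. Mir451a was listed at 0, 0.847 and 1.02 in Acute 2.8 Gy, against 38.9 to 163.7 (median 126) in Acute sham. It had 58.9 to 168 (median 129) in VarDR 2.8 Gy, against 103 to 412 (median 152) in VarDR sham. The acute libraries were at or near 0 while the VarDR groups overlapped. The difference was -5.39 ± 0.61 (adjusted p = 6.48e-06), and the VarDR response of -0.69 did not pass (adjusted p = 0.3). The table does not separate the precursor from the mature form, so the value belongs to the locus. The mature sequence from RefSeq (chr11:78073186-78073207, plus strand, GRCm38.p6), with its seed at bases 2 to 8 in capitals, is shown because this locus was the only red cell microRNA among the named genes.
miR-451a: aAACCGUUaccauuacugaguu

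The regulators of red cell formation did not move as a group. Of 8 erythroid regulator and iron uptake genes, 1 fell more after acute exposure, 3 rose and 3 fell in the acute arm, and the median difference was 0.22, or 1.24 with 4 higher and 1 lower on the deposited scale. The gene that fell was Hemgn, hemogen, a nuclear protein of blood cell precursors, with a difference of -3.37 ± 0.52 (adjusted p = 0.000346). Nfe2, a transcription factor shared by red cell and platelet precursors, rose in the acute arm (1.15 ± 0.17, adjusted p = 2.25e-05) and in the VarDR arm (0.45 ± 0.14, adjusted p = 0.0351), and its difference of 0.70 did not pass (adjusted p = 0.099), though it passed with the liver covariate (0.96, adjusted p = 0.0487).

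GATA1, the chief transcription factor of red cells, binds the letters AGATAA or TGATAA on either strand. In RefSeq windows of 250 bases before to 50 after each gene's start (GRCm38.p6), these letters occurred in 16 of 33 windows of the red cell lists (48.5%), in 1446 of 12108 windows of tested genes (11.9%), and in 5122 of 27025 windows overall (19%). They occurred in 43 of 276 windows of genes lower in the difference (15.6%) and in 6 of 56 of genes higher in it (10.7%). The windows of Alas2 (chrX:150547167-150547466, plus strand) and Hemgn (chr4:46404134-46404433, minus strand) show such words in capitals, read on the reverse strand in Alas2. A match is a description of these letters and not evidence of binding.
Alas2: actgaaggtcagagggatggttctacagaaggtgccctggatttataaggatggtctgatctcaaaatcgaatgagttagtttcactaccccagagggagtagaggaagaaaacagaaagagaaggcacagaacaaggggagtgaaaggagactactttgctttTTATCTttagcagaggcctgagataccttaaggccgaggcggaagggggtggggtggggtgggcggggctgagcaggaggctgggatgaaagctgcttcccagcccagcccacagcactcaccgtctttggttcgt
Hemgn: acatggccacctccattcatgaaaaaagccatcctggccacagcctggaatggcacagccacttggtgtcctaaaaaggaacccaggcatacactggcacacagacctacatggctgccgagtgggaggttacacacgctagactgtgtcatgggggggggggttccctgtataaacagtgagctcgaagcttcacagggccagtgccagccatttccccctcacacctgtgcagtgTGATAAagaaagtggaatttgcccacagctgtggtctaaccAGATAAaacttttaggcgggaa

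B cell genes formed the next group. Of 24 B cell markers, 21 fell more after acute exposure (median -1.67), 23 fell in the acute arm (median -2.34) and 14 in the VarDR arm (median -0.68). The difference count was 13 with the liver covariate and 5 without the liver-rich libraries, and the VarDR count was 9 without VarDR sham replicate 2. On the deposited scale the difference count was 10, all lower. Ighd, the constant region of IgD on mature naive B cells, had 161, 171 and 192 in Acute 2.8 Gy, against 1991 to 4628 (median 2999) in Acute sham, and 906 to 1455 (median 1221) in VarDR 2.8 Gy, against 1477 to 3502 (median 2159) in VarDR sham. Neither irradiated group overlapped its shams, and the acute libraries lay lowest. Its difference was -3.14 ± 0.30 (adjusted p = 9.84e-07) and was -2.90 without the liver-rich libraries (adjusted p = 0.00143).

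Cr2, complement receptor 2 of B cells, had 50.4, 87.9 and 118 in Acute 2.8 Gy, against 713 to 1337 (median 1202) in Acute sham, and 338 to 631 (median 440) in VarDR 2.8 Gy, against 529 to 1187 (median 903) in VarDR sham. The acute groups were apart and the VarDR groups overlapped. The difference was -2.77 ± 0.35 (adjusted p = 2.31e-05). Of 11 MHC class II genes, which present antigen on B cells, dendritic cells and macrophages, 9 fell more after acute exposure (median -1.33), all 11 fell in the acute arm and 7 in the VarDR arm. That count was 5 without Acute 2.8 Gy replicate 2, 3 with the liver covariate, 0 without the liver-rich libraries and 4 on the deposited scale, all lower. H2-Ob and H2-Oa, which form the regulator of peptide loading H2-O, differed by -2.22 ± 0.32 (adjusted p = 0.000114) and -2.38 ± 0.35 (adjusted p = 0.000202). Without the liver-rich libraries these were -1.74 (adjusted p = 0.0709) and -1.95 (adjusted p = 0.104).

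Of 12 tested plasma cell markers, 2 were lower in the difference (median -0.74), 2 fell in the acute arm, and 3 rose in the VarDR arm, whereas on the deposited scale the median difference was 0.22, with 2 lower and 1 higher. Over all genes, 2.44% were lower in the difference, 11.1% fell in the acute arm and 5.98% rose in the VarDR arm. The 2 markers that were lower in the difference were Igha, the constant region of IgA, and Jchain, which joins IgA and IgM into polymers. Igha had 391, 458 and 829.4 in Acute 2.8 Gy, against 541 to 1334 (median 673) in Acute sham, and 1258 to 2023 (median 1534) in VarDR 2.8 Gy, against 164.5 to 603 (median 225) in VarDR sham. The acute groups overlapped, whereas every VarDR 2.8 Gy library stood above every VarDR sham. The VarDR response of Igha was 2.62 ± 0.27 (adjusted p = 3.57e-06), the acute response of -0.52 did not pass (adjusted p = 0.286), and the difference was -3.13 ± 0.43 (adjusted p = 8.76e-05). The larger part of this difference came from the shams, which differed by 1.59 (Acute sham minus VarDR sham).

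Jchain had 95.8, 97.2 and 214 in Acute 2.8 Gy, against 146 to 251 (median 233) in Acute sham, and 289 to 478 (median 356) in VarDR 2.8 Gy, against 49.5 to 124 (median 81.7) in VarDR sham. The VarDR groups did not overlap and the acute groups did. Its VarDR response was 2.11 ± 0.24 (adjusted p = 6.46e-06), its difference -2.84 ± 0.38 (adjusted p = 4.11e-05), and its shams differed by 1.32. Without the liver-rich libraries the differences of Igha and Jchain were -3.53 (adjusted p = 0.00918) and -3.42 (adjusted p = 0.00124).

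Of 25 T cell markers, 2 were lower in the difference (median -0.38), where 2.44% of all genes were, 4 fell in the acute arm and 5 rose in the VarDR arm, but on the deposited scale 8 were higher and 0 lower in the difference (median 0.65). Over all genes, 11.1% fell in the acute arm and 5.98% rose in the VarDR arm. Ccr7, the receptor that guides naive T cells to lymph nodes, had 382, 622 and 632 in Acute 2.8 Gy, against 1270 to 2466 (median 2075) in Acute sham, and 1202 to 1766 (median 1505) in VarDR 2.8 Gy, against 977 to 2562 (median 1725) in VarDR sham. Only the acute groups were apart. Its difference was -1.69 ± 0.32 (adjusted p = 0.00301). Cd8b1, the beta chain of the CD8 coreceptor, differed by -1.76 ± 0.37 (adjusted p = 0.00772), with a VarDR response of -0.01. With the liver covariate the difference was -1.34 for Ccr7 (adjusted p = 0.0703) and -1.36 for Cd8b1 (adjusted p = 0.13), without the liver-rich libraries it was -1.98 (adjusted p = 0.0257) and -2.10 (adjusted p = 0.099), and on the deposited scale both stayed below 0 without passing.

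Natural killer and cytotoxic genes rose in both arms, with 14 of 15 higher than sham in the acute arm (median 1.31) and 10 in the VarDR arm (median 0.80), a count of 6 without VarDR 2.8 Gy replicate 6. None of the 15 passed in the difference (median 0.52), although 3 were higher with the liver covariate and all 15 on the deposited scale, and the counts higher in the 2 arms were 3 and 4 without the liver-rich libraries. Of 15 mature neutrophil markers, 2 rose in the acute arm (median 0.52) and 12 in the VarDR arm (median 1.34), a count of 7 without VarDR 2.8 Gy replicate 3. Over all genes, 9.76% rose in the acute arm and 5.98% in the VarDR arm. None of the 15 neutrophil markers passed in the difference (median -0.73), so this test does not show that the arms differ, and on the deposited scale 12 rose in each arm (median difference 0.25). No monocyte, regulatory T cell, or eosinophil and basophil marker passed in the difference, though on the deposited scale 11 monocyte, 2 regulatory T cell and 1 eosinophil and basophil marker were higher. With quantile normalisation, and with the liver covariate, 1 monocyte marker was higher.

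**Figure D3:**
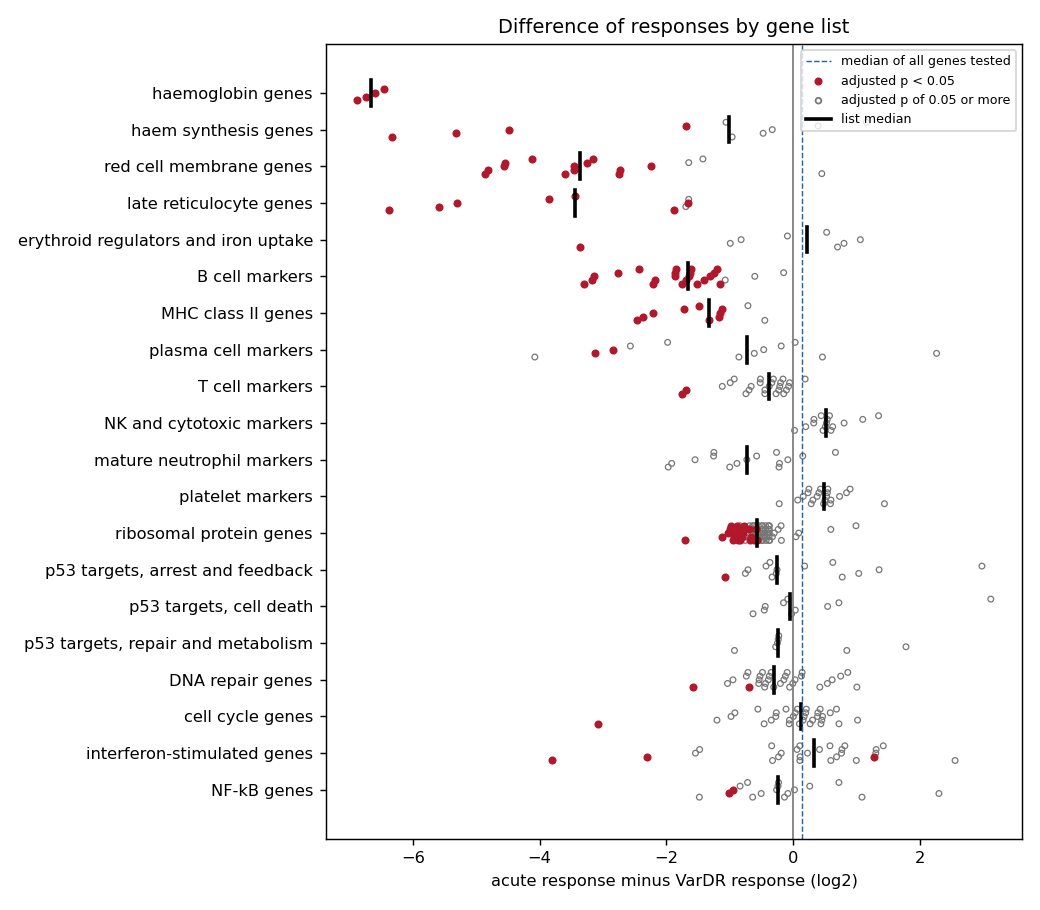
Difference of the 2 responses (acute minus VarDR, log2 scale) for the members of 20 gene lists, each dot a gene, filled in red where the adjusted p is under 0.05, with a black bar at the list median and a dashed line at the median of all genes, 0.14. The list of erythroid regulators and iron uptake has a median of 0.22, right of the line. Medians of the other red cell lists and of the B cell and MHC class II lists lie left of it. They are -6.67 for haemoglobin, -1.67 for B cell and -1.33 for MHC class II genes.

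Ribosomal protein genes shifted by small amounts in many members. Of 80 tested, 23 were lower in the difference (median -0.57), 75 fell in the acute arm and 32 in the VarDR arm, but on the deposited scale 35 were higher and 0 lower in the difference (median 0.45), so the direction depends on the scaling. The count of 23 was also 5, 8 and 6 without Acute 2.8 Gy replicate 1, 2 and 3, and 0 with the liver covariate or without the liver-rich libraries. Rps7 and Rpl11, proteins of the small and large subunit that also bind Mdm2, differed by -0.99 ± 0.19 (adjusted p = 0.00264) and -0.87 ± 0.16 (adjusted p = 0.00234), and by 0.042 and 0.16 on the deposited scale. Rpl11 had 2032, 2073 and 2401 in Acute 2.8 Gy, against 3529 to 4445 (median 3992) in Acute sham, and 3648 to 4051 (median 3853) in VarDR 2.8 Gy, against 3290 to 4409 (median 4042) in VarDR sham. The 3 acute libraries were below all others.

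Of 31 DNA repair genes, 2 were lower in the difference (median -0.31), where 2.44% of all genes were, 12 fell in the acute arm and 7 in the VarDR arm, but on the deposited scale 12 were higher and 0 lower in the difference. Bard1, the partner of Brca1, differed by -1.58 ± 0.39 (adjusted p = 0.0239), and Parp1, which senses DNA breaks, by -0.69 ± 0.17 (adjusted p = 0.0277). The Parp1 difference was 0.34 on the deposited scale, and neither gene passed with the liver covariate or without the liver-rich libraries (adjusted p 0.167 to 0.751), at -1.38 and -1.40 for Bard1 and -0.53 and -0.60 for Parp1. Leaving out any of the 3 Acute 2.8 Gy libraries also ended both calls. Of 32 cell cycle genes, 9 fell in the acute arm and 10 in the VarDR arm, where 11.1% and 6.52% of all genes did. On the deposited scale 17 were higher and 1 lower in the difference. On the common scale 1 was lower in the difference (median 0.13), where 2.44% of all genes were. The gene was Nusap1, a spindle protein, with 321, 339 and 405 in Acute 2.8 Gy, against 6966 to 13816 (median 9593) in Acute sham, and 1520 to 7016 (median 4625) in VarDR 2.8 Gy, against 7069 to 21950 (median 11043) in VarDR sham. Neither pair of groups overlapped, and its difference was -3.09 ± 0.52 (adjusted p = 0.00107). Bub1b, a spindle checkpoint kinase, fell in both arms (acute -2.48 and VarDR -1.28), and its difference of -1.20 did not pass (adjusted p = 0.146).

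Signalling lists gave single genes rather than groups. Over all genes tested, 2.44% were lower and 0.397% higher in the difference. Of 26 interferon-stimulated genes, 2 were lower and 1 higher in the difference (median 0.32), or 1 lower and 20 higher on the deposited scale. Rsad2, an antiviral enzyme gene, had 1879, 1998 and 2334 in Acute 2.8 Gy, against 59765 to 115422 (median 87974) in Acute sham, and 19258 to 77381 (median 48172) in VarDR 2.8 Gy, against 56466 to 241008 (median 107317) in VarDR sham. Its acute groups lay far apart and its VarDR groups overlapped, with a difference of -3.81 ± 0.54 (adjusted p = 0.000112). Isg15, a ubiquitin-like modifier, differed by -2.31 ± 0.55 (adjusted p = 0.0217), by -1.86 with the liver covariate (adjusted p = 0.178), by -2.79 without the liver-rich libraries (adjusted p = 0.0555) and by -2.09 without Acute 2.8 Gy replicate 3 (adjusted p = 0.0906). The gene that was higher was Bst2, which tethers budding viruses, named here after its value was seen. Of 17 NF-kB genes, 2 were lower in the difference (median -0.24), or 8 higher and 0 lower on the deposited scale. They were Nfkb2 (-0.95 ± 0.22, adjusted p = 0.019) and Relb (-1.01 ± 0.25, adjusted p = 0.0233), partners in the noncanonical pathway, at 0.082 and 0.015 on the deposited scale, and neither passed with the liver covariate (-0.62 and -0.87) or without the liver-rich libraries (-0.71 and -1.07). Of 7 glucocorticoid-responsive genes, 1 was higher in the difference (median -0.25), or 3 higher on the deposited scale (median 0.78). It was Zbtb16, a zinc finger transcription factor. Zbtb16 had 498, 511 and 629 in Acute 2.8 Gy, against 58.9 to 191 (median 121) in Acute sham, and 164 to 278 (median 209) in VarDR 2.8 Gy, against 85.2 to 261 (median 186) in VarDR sham. The acute libraries stood above all others, and its difference was 1.93 ± 0.41 (adjusted p = 0.00862). It was 1.71 with the liver covariate (adjusted p = 0.0963) and 1.88 without the liver-rich libraries (adjusted p = 0.422). Of 15 circadian clock genes, 10 NRF2 genes and 9 MHC class I genes, none passed in the difference, and on the deposited scale 9, 7 and 9 were higher.

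The genes that rose more after acute exposure were fewer and less stable. Olr1, the receptor for oxidised LDL (chr6:129485244-129507165, minus strand, GRCm38), had the highest difference among the named genes. It had 407, 455 and 559 in Acute 2.8 Gy, against 3.24 to 50.8 (median 12.3) in Acute sham, and 8.84 to 60.9 (median 36.7) in VarDR 2.8 Gy, against 9.91 to 43.9 (median 23.7) in VarDR sham. All 3 acute libraries stood above all 18 others. The value was 455 in the one with 0.181% liver markers, while the Acute shams held at most 0.131%. The acute response was 5.17 ± 0.66 (adjusted p = 3.03e-06), the VarDR response 0.49 ± 0.54 (adjusted p = 0.698) and the difference 4.68 ± 0.85 (adjusted p = 0.00174). It was 4.70 with the liver covariate (adjusted p = 0.0163) and 4.74 without the liver-rich libraries (adjusted p = 0.116).

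The other 7 were Mxra7 (3.25 ± 0.71, adjusted p = 0.0102), Arhgef5 (2.99), the paraoxonase gene Pon3 (2.59), the magnesium transporter gene Nipal1 (2.36), the quinone reductase gene Nqo2 (2.30), the nebulin gene Neb (2.27) and the zinc finger gene Zfp111 (2.27). Mxra7 had 69.5, 86.0 and 87.1 in Acute 2.8 Gy, against 1.75 to 10.3 (median 4.64) in Acute sham, and 7.43 to 37.4 (median 23.0) in VarDR 2.8 Gy, against 5.46 to 20.8 (median 14.1) in VarDR sham. Its acute libraries stood above all others. For Arhgef5, Pon3 and Nipal1 the VarDR shams reached 181, 386 and 176. These values were above every Acute 2.8 Gy library, which reached 172, 259 and 161 in the same order. The differences of these genes thus also rest on Acute shams that lay lower than the VarDR shams.

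Liver markers moved with several of these genes. Nipal1 had 161 and 159 in the Acute 2.8 Gy libraries with 2.60% and 2.93% liver markers and 52.6 in the one with 0.181%, against 17.5 to 54.9 in Acute sham. Nqo2 had 782, 782 and 644 in the same order, and reached 914 and 807 in the VarDR shams with 2.86% and 1.11% liver markers, against 185 to 333 in the other 4. None of these 7 passed with the liver covariate (adjusted p 0.116 to 0.385) or without the liver-rich libraries (adjusted p 0.116 to 0.959). In that order the difference was 0.83 and 1.90 for Nqo2, 1.06 and 2.43 for Pon3, and 1.56 and 1.38 for Nipal1. It was 2.84 and 3.25 for Mxra7, 2.14 and 2.60 for Arhgef5, 1.62 and 1.90 for Zfp111, and 1.43 and 1.89 for Neb. The 25 liver markers themselves had a median difference of 8.26 and none passed, while 4 rose in the acute arm.

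Only 4 genes passed in both arms in opposite directions and in the difference. Gsk3b, a kinase of glycogen and Wnt signalling, had 2009, 2299 and 2537 in Acute 2.8 Gy, against 1070 to 1323 (median 1146) in Acute sham, and 779 to 1540 (median 1224) in VarDR 2.8 Gy, against 1208 to 2603 (median 1661) in VarDR sham. The acute libraries stood above their shams without overlap, while the VarDR groups overlapped. Its acute response was 0.95 ± 0.22 (adjusted p = 0.00291), its VarDR response -0.56 ± 0.18 (adjusted p = 0.0435) and the difference 1.51 ± 0.29 (adjusted p = 0.00264). Gsk3b passed both with the liver covariate and without the liver-rich libraries (1.78 in each). Acaca, the first enzyme of fatty acid synthesis, differed by 1.43 (adjusted p = 0.00935), and Ecpas, a proteasome adaptor gene, by 1.05 (adjusted p = 0.0151). Ankrd13d, an ankyrin repeat gene, moved the other way, with an acute response of -0.91, a VarDR response of 0.85 and a difference of -1.76 ± 0.40 (adjusted p = 0.015). These 3 did not pass under either liver setting, where Acaca stood at 0.97 and 1.31, Ecpas at 0.95 in both, and Ankrd13d at -1.89 and -1.56. The other 2 genes that kept a higher call without the liver-rich libraries were Acer2, a ceramidase gene, and Dstn, the actin-severing protein destrin, both named after their values were seen.

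**Figure D4:**
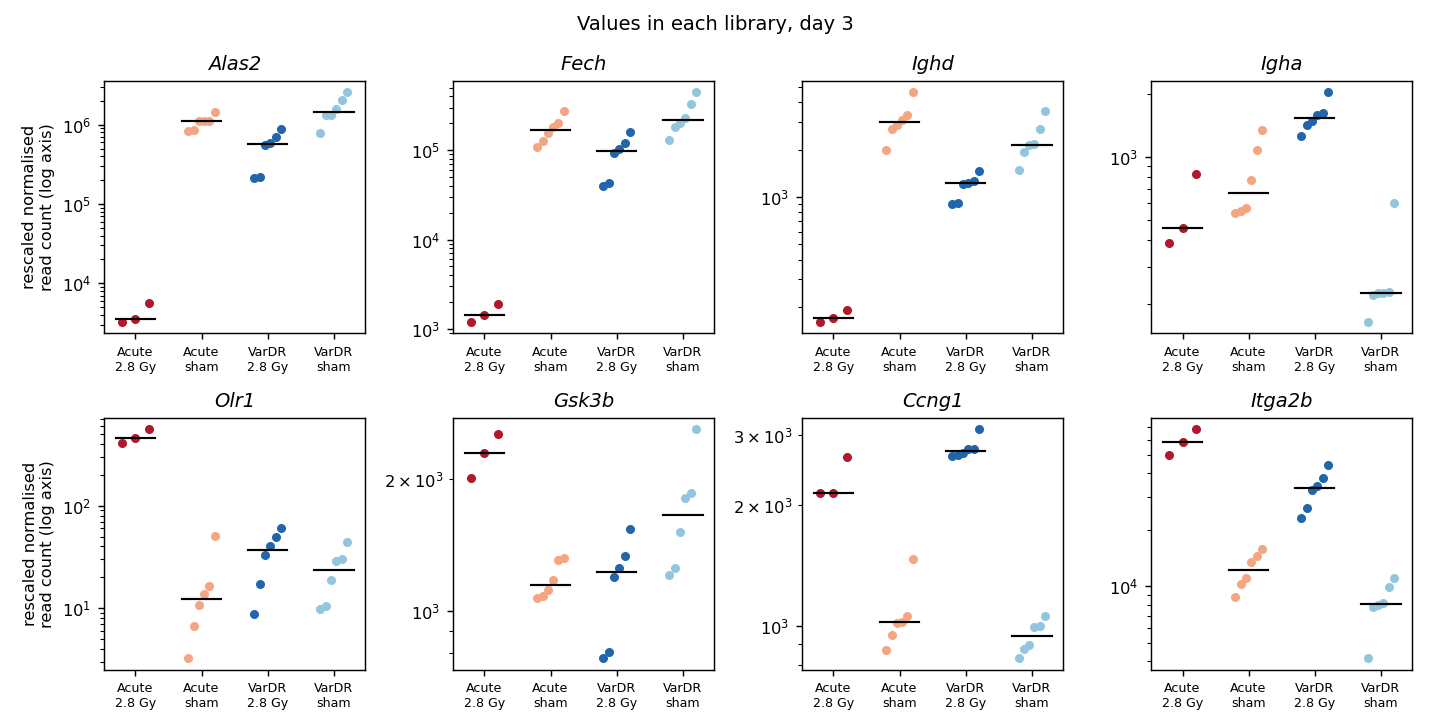
Rescaled normalised read counts on a log axis for 8 genes in each of the 21 libraries, grouped as Acute 2.8 Gy, Acute sham, VarDR 2.8 Gy and VarDR sham, with a black line at each group's median. Alas2 and Fech are lowest in the 3 Acute 2.8 Gy libraries, Olr1 is high there only, Igha is highest in VarDR 2.8 Gy, and Ccng1 and Itga2b stand above sham in both arms.

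A gene was called dose-rate-independent when it passed in both arms in the same direction and the 95% interval of its difference lay within 1 log2 unit of 0, a 2-fold margin. This held for 370 genes higher (2.13%) and 220 lower (1.27%) than sham, 590 of the 1594 genes that moved the same way in both arms. Of those 1594, 254 differed between arms, 1412 had the larger response in the acute arm and 182 in the VarDR arm. The 751 that met neither rule are undecided at this precision. The independent higher genes had median responses of 0.93 (acute) and 0.75 (VarDR), and the lower ones -0.86 and -0.68. The set rests on the common scale, since only 1 of the 590 met the rule on the deposited values. Of the 590, 251 met it with the liver covariate, and 92 without the liver-rich libraries.

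Platelet genes rose in both arms. Of 21 markers, 20 rose in the acute arm (median 2.00) and 19 in the VarDR arm (median 1.48), none passed in the difference (median 0.48), and 4 met the rule for independence. On the deposited scale 20 were higher in the difference, and with quantile normalisation 8, so this count depends on the scaling. With 1 library left out, 1 (without Acute 2.8 Gy replicate 3) to 8 (without VarDR 2.8 Gy replicate 3) met the rule. The number was 2 with the liver covariate, 0 with a 1.5-fold margin and 10 with library weights. Without the liver-rich libraries the median responses were 2.12 (acute) and 1.46 (VarDR), and the median difference was 0.61. The list held 3.33% to 4.10% of reads in Acute 2.8 Gy, against 0.297% to 0.510% in Acute sham, and 0.858% to 1.17% in VarDR 2.8 Gy, against 0.145% to 0.260% in VarDR sham.

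Itga2b, the platelet integrin subunit of the fibrinogen receptor, had the highest mean response of the named independent genes. It had 49736, 58703 and 68364 in Acute 2.8 Gy, against 8838 to 15769 (median 12235) in Acute sham, and 23009 to 44329 (median 33445) in VarDR 2.8 Gy, against 4154 to 11039 (median 8043) in VarDR sham. Every irradiated library stood above every sham of its arm. The responses were 2.27 ± 0.26 (acute, adjusted p = 7.36e-07) and 2.04 ± 0.21 (VarDR, adjusted p = 3.08e-06), and the difference was 0.23 (95% interval -0.46 to 0.93). Itga2, a collagen receptor subunit of platelets, responded by 1.98 and 1.78 (interval of the difference -0.52 to 0.92). Also among the highest were Sort1, a sorting receptor gene, at 1.97 and 1.58 (-0.05 to 0.83), Slc2a3, a glucose transporter gene, at 1.88 and 1.54 (-0.31 to 0.99), and Sytl4, a granule exocytosis gene, at 1.82 and 1.60 (-0.49 to 0.93).

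The 6 lowest independent genes had responses between -1.41 and -1.05 in both arms. Ftx, a noncoding RNA of the X inactivation centre, responded by -1.41 and -1.27. Polr3b, a subunit of RNA polymerase III, had 282, 364 and 370 in Acute 2.8 Gy, against 579 to 1050 (median 813) in Acute sham, and 291 to 548 (median 518) in VarDR 2.8 Gy, against 874 to 1782 (median 1025) in VarDR sham. Both pairs of groups were apart, and its difference was 0.01 (interval -0.60 to 0.62). Cmc4 responded by -1.26 and -1.15, Tdrd3 by -1.17 and -1.16, the deubiquitinase gene Usp32 by -1.13 and -1.19, and Abhd5, a lipase coactivator gene, by -1.05 and -1.26.

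Of 31 p53 targets in 3 lists, 11 rose in both arms. In the acute arm 13 rose and 4 fell (median 0.87), though the 4 that fell stood above 0 on the deposited scale, and in the VarDR arm 15 rose and 0 fell (median 0.59). Over all genes, 9.76% rose and 11.1% fell in the acute arm, and 5.98% rose and 6.52% fell in the VarDR arm. In the difference, 1 of the 31 was lower, where 2.44% of all genes were. The rule for independence was met by 4 targets (Ccng1, Trp53inp1, Bax and Bbc3), and by 2.13% of all genes as higher and 1.27% as lower. The median difference was -0.23, against 0.14 over all genes. On the deposited scale 18 were higher and 0 lower in the difference. With the liver covariate, 6 of 14 arrest and feedback targets rose and 1 fell in the acute arm. There 2 of 10 cell death and 0 of 7 repair and metabolism targets rose, and 0 fell. In the same list order 2, 1 and 0 were independent. Without the liver-rich libraries the acute medians of these lists were 0.72, 0.74 and 0.029.

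Cdkn1a, the p21 inhibitor of cyclin-dependent kinases (chr17:29090976-29100727, plus strand, GRCm38), had 208, 217 and 307 in Acute 2.8 Gy, against 8.78 to 27.5 (median 16.2) in Acute sham, and 151 to 319 (median 202) in VarDR 2.8 Gy, against 9.81 to 67.0 (median 16.7) in VarDR sham. Both irradiated groups stood above all shams and overlapped each other. Its responses were 3.86 ± 0.49 (adjusted p = 3.18e-06) and 3.23 ± 0.40 (adjusted p = 1.73e-05), and the difference of 0.63 had an interval of -0.69 to 1.95, too wide for the 2-fold margin. Its neighbour Trp53cor1, the lincRNA-p21 gene, responded by 4.31 and 2.95.

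Ccng1, cyclin G1 (chr11:40748552-40755311, minus strand, GRCm38), had 2145, 2147 and 2642 in Acute 2.8 Gy, against 872 to 1469 (median 1021) in Acute sham, and 2658 to 3094 (median 2732) in VarDR 2.8 Gy, against 831 to 1059 (median 946) in VarDR sham. All VarDR 2.8 Gy libraries stood above all acute ones. Its responses were 1.13 ± 0.14 (adjusted p = 2.21e-06) and 1.56 ± 0.11 (adjusted p = 5.83e-08), with a difference of -0.43 (interval -0.80 to -0.05, adjusted p = 0.22). Phlda3, an inhibitor of Akt signalling, responded by 2.90 and 2.72 (interval of the difference -0.73 to 1.10). Zmat3, an RNA-binding protein gene, responded by 2.37 and 1.34, and its difference of 1.03 did not pass (adjusted p = 0.251).

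The feedback genes gave mixed values. Mdm2, the ligase that degrades p53, rose in the VarDR arm (0.57 ± 0.14, adjusted p = 0.00799), while its acute response of 0.24 did not pass (adjusted p = 0.339), and neither did the difference of -0.33 (adjusted p = 0.445). Ppm1d, the phosphatase that switches the damage signal off, fell in the acute arm (-0.86 ± 0.18, adjusted p = 0.00137), though its value was 0.17 on the deposited scale. Btg2, an antiproliferative gene, was the only p53 target that passed in the difference, at -1.07 ± 0.25 (adjusted p = 0.0178), and its call was lost with the liver covariate (-0.71, adjusted p = 0.25) and without the liver-rich libraries (-0.99, adjusted p = 0.489). Btg2 had 1508, 1623 and 1710 in Acute 2.8 Gy, against 2114 to 3633 (median 2477) in Acute sham, and 2003 to 3179 (median 2473) in VarDR 2.8 Gy, against 1459 to 2782 (median 1906) in VarDR sham. Its acute response of -0.69 passed (adjusted p = 0.0137) and was 0.35 on the deposited scale.

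Of 10 cell death targets, 5 rose in each arm, 2 were independent and none passed in the difference (median -0.06). With the liver covariate 2 rose in the acute arm and 5 in the VarDR arm, and 1 was independent. Bax, which opens the mitochondrial membrane, had 456, 458 and 505 in Acute 2.8 Gy, against 160 to 296 (median 249) in Acute sham, and 505 to 783 (median 659) in VarDR 2.8 Gy, against 213 to 255 (median 233) in VarDR sham. Both irradiated groups stood above their shams. Its responses were 0.99 ± 0.17 and 1.44 ± 0.14, with a difference of -0.46 (interval -0.92 to 0.01). Bbc3, the BH3-only protein Puma, responded by 1.28 and 1.30, with a difference of -0.02 (interval -0.83 to 0.78).

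Eda2r, an ectodysplasin receptor gene, was listed at 7.50, 20.4 and 23.8 in Acute 2.8 Gy, against 0 to 4.67 in Acute sham, with 3 shams at 0. It had 25.2 to 31.0 in VarDR 2.8 Gy, against 0 to 8.48 in VarDR sham. Gdf15, a stress cytokine gene of the arrest and feedback list, had 17.0, 25.8 and 35.7 in Acute 2.8 Gy, while 5 of the Acute shams were listed at 0 and the other at 1.48. The VarDR groups of Gdf15 overlapped, at 0 to 67.5 in VarDR 2.8 Gy, against 0 to 23.6 in VarDR sham. Only its acute response passed (adjusted p = 0.0107). Of 7 repair and metabolism targets, Polk, a translesion polymerase gene, rose in the VarDR arm (0.85, adjusted p = 0.0241) and Ddb2, a sensor of DNA lesions, fell in the acute arm (-0.80, adjusted p = 0.0345), though Ddb2 was at 0.23 on the deposited scale.

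**Figure D5:**
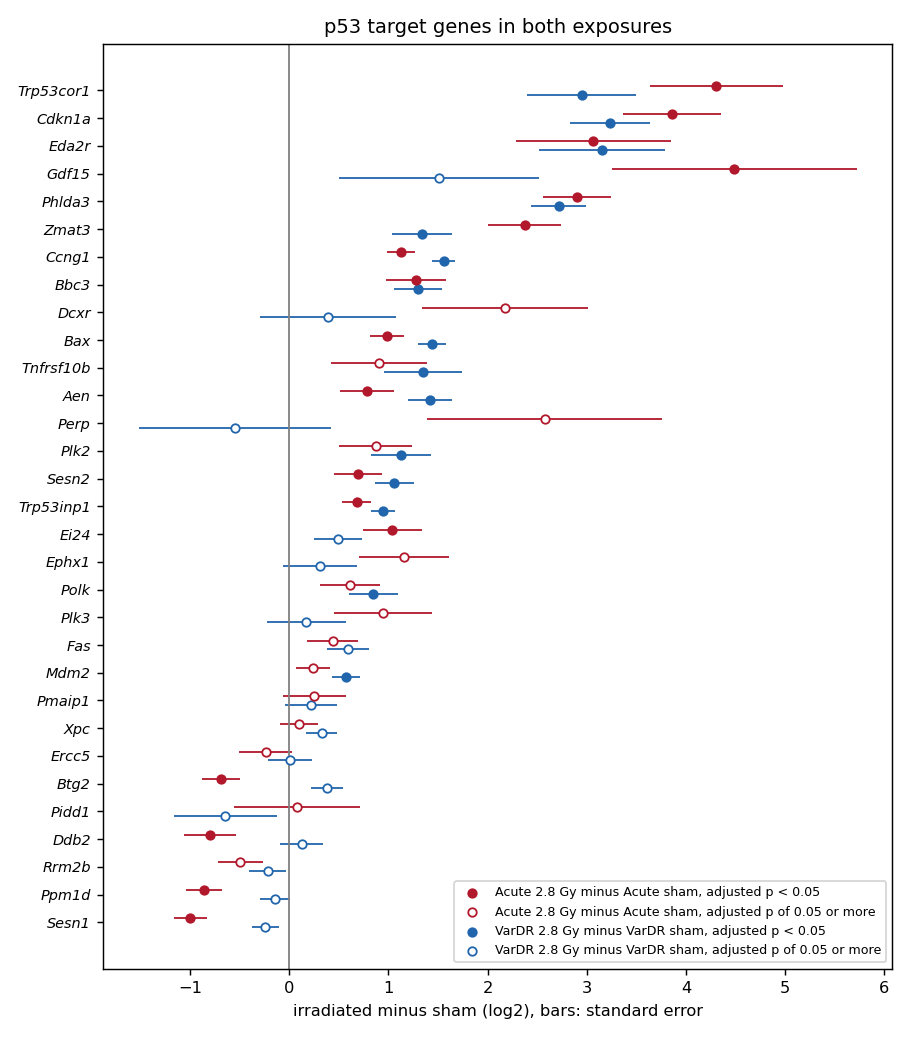
Response of the 31 p53 target genes to acute and VarDR exposure, irradiated minus sham on the log2 scale, with bars of 1 standard error and filled points where the adjusted p is under 0.05. Cdkn1a stands at 3.86 (acute) and 3.23 (VarDR), Ccng1 at 1.13 and 1.56, and Btg2 is below 0 in the acute arm only.

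A full p53 response element (20 bases, with 1 mismatch allowed) was found in the RefSeq windows of 2 of 22 matched p53 targets (9.09%), Cdkn1a and Ccng1, in 9 of 12108 windows of tested genes (0.0743%) and in 25 of 27025 windows overall (0.0925%). Their windows are shown with the element in capitals, Cdkn1a at chr17:29090729-29091028 on the plus strand and Ccng1 at chr11:40755237-40755536 on the minus strand (GRCm38.p6). An element farther away would not be seen in this window.
Cdkn1a: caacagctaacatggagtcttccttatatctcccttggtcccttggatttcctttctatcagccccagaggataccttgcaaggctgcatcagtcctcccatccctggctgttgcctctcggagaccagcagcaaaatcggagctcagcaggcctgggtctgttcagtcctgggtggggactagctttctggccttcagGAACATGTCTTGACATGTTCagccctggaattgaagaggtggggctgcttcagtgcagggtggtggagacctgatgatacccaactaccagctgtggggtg
Ccng1: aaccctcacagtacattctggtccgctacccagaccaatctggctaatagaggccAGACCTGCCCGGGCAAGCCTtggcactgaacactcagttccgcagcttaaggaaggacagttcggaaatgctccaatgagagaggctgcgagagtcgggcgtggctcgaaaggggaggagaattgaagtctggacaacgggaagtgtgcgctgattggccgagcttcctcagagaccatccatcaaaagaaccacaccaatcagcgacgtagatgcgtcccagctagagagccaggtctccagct

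The other days of the series give some genes of these lists at other doses, as medians after all 80 libraries were rescaled together, with no test. At day 2, after 2 Gy, Alas2 had a median of 34461 in the Acute group, against 818007 in its shams, and 410804 in the VarDR group, against 541833 in its shams. At day 3, on this scale, it had 4490 in Acute 2.8 Gy, against 1356373 in Acute sham, and 701944 in VarDR 2.8 Gy, against 1793136 in VarDR sham. At day 5, after 4.1 Gy, it had 267531 in the Acute group, against 874807 in its shams, and 883743 in the VarDR group, against 962503 in its shams. The acute median was thus below its shams on all 3 days and lowest at day 3. Ccng1 had medians of 2818 (Acute) and 3247 (VarDR) at day 2 and of 2645 and 3332 at day 5, with sham medians of 1132 to 1282 on those days. Itga2b had 48367 and 33308 at day 2 and 62270 and 33405 at day 5, with sham medians of 8342 to 10433. Cdkn1a had 192 and 205, then 162 and 356 (sham medians 23.8 to 42.0). Epb42 had 171 and 1566, then 1698 and 5274 (sham medians 2217 to 4745). The B cell marker Cd79a had 719 and 1740, then 289 and 853 (sham medians 2783 to 3532). The MHC class II gene H2-Aa had 2948 and 7880, then 5883 and 3951 (sham medians 10356 to 14357). At day 5 the acute median of H2-Aa was the higher, while at day 3 it had 3347 and 5654.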

How the data were processed

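Whole blood RNA of 80 female mice was sequenced, and the 21 day-3 libraries were analysed. The authors deposited 1 table of normalised read counts per gene, a signal that is not whole numbers, and how it was scaled is not given in the sources used here. Build GRCm38 and the tools kallisto 0.44.0, DESeq2, sleuth and bcl2fastq 2.19 come from the submitters' processing notes. Of 82 value columns, 2 matched no sample and were not used. Of 50391 rows, 26 that name no single gene were left out, at most 0.410% of a library. No count model was used.

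Each column was divided by the median of its ratios to the geometric mean, over 12575 genes above 0 in all 21. A gene was kept when 3 or more libraries reached 10 on this scale, and was tested as log2(value + 1) with limma 3.58.1 in R 4.3.3 (1 mean per group, 17 residual degrees of freedom, trend and robust moderation). The 95% intervals are limma's. A fold on this scale understates the change of low genes. The code was tested on simulated data. The true depth is unknown, since the columns were normalised. Nothing in the labels numbers the animals, so p-values measure the spread between these libraries.

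The members and gene lists were chosen with earlier results of these data known. Named genes were the 8 highest and 8 lowest differences with a group mean of at least 50 (without predicted genes, pseudogenes, receptor segments, haemoglobin and other-tissue markers), the 2 smallest p in each list with a member that passed, the 6 highest and 6 lowest independent genes, the 4 genes of opposite direction with the largest difference, and all p53 targets. A gene that this rule names is not reported here. Alternatives covered scaling, filter, pseudocount, all 14 groups, library weights, the margin and leaving out each library. The 2 liver settings were added after seeing the data.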

Additional observations from a re-analysis of the deposited data

Results flagged for a closer look

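The effect of 2.8 Gy differed between the 2 exposures, by the test of the difference of responses itself, for 492 genes. Among the named genes those lower in the difference, acute minus VarDR response, were Hba-a1 (-6.88), Hbb-bs (-6.73), Bpgm (-6.37), Alas2 (-6.32), Fam220a (-6.00), Cdr2 (-5.98), Ube2l6 (-5.60), Tent5c (-5.59), Slc25a39 (-5.42), Mir451a (-5.39), Fech (-5.32), Epb42 (-4.86), Dmtn (-3.46) and Hemgn (-3.37). Lower too were Rsad2 (-3.81), Ighd (-3.14), Igha (-3.13), Nusap1 (-3.09), Jchain (-2.84), Cr2 (-2.77), H2-Oa (-2.38), Isg15 (-2.31), H2-Ob (-2.22), Ankrd13d (-1.76), Cd8b1 (-1.76), Ccr7 (-1.69), Bard1 (-1.58), Btg2 (-1.07), Relb (-1.01), Rps7 (-0.99), Nfkb2 (-0.95), Rpl11 (-0.87) and Parp1 (-0.69). Those higher were Olr1 (4.68), Mxra7 (3.25), Arhgef5 (2.99), Pon3 (2.59), Nipal1 (2.36), Nqo2 (2.30), Neb (2.27), Zfp111 (2.27), Zbtb16 (1.93), Gsk3b (1.51), Acaca (1.43) and Ecpas (1.05), all on the log2 scale.

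A single library lay far from the rest of its group in 5 of 96 groups tested with Dixon's criterion, where chance gives about 1 in 20. All were VarDR shams: replicate 2 for Mxra7 (5.46), replicate 1 for Itga2b (4154) and Sytl4 (509), replicate 4 for Sort1 (962.5) and replicate 5 for Polr3b (1782).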

How the results depend on the processing

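On the values as deposited, where the median difference over all genes was 1.14 in place of 0.14, 8990 genes differed by dose rate (8773 higher, 217 lower), 11784 changed after acute exposure, 2747 differed between shams, 6119 between irradiated groups, and 137 were independent. There the acute responses of Btg2 (0.35), Sesn1 (0.037), Ppm1d (0.17) and Ddb2 (0.23) and the differences of Parp1 (0.34), Nfkb2 (0.082), Relb (0.015), Rpl11 (0.16) and Rps7 (0.042) reversed. With quantile normalisation 850 differed (171 higher, 679 lower; median -0.11) and 11 between shams. With library weights these were 2219 (1060 higher, 1159 lower), 7535 after acute exposure, 4485 between irradiated groups and 999 independent. All 14 groups in 1 fit gave 2 between shams, and a 1.5-fold margin 121 independent genes. The causes were not tested.

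The liver covariate gave 230 genes in the difference, 2375 after acute exposure and 368 independent. Leaving out the 6 liver-rich libraries gave 141, 1472 and 103, with 1419 after VarDR exposure and 393 between irradiated groups, from fewer libraries. Leaving out 1 library at a time gave 310 to 577 genes in the difference, 337 to 693 independent, 2436 to 3989 after acute exposure, 1723 to 2297 after VarDR exposure, 766 to 1426 between irradiated groups and 0 to 3 between shams. The lowest counts in the difference were 310 and 324, without Acute 2.8 Gy replicates 1 and 2. Of 101 calls of named genes, 18, 15 and 10 were lost without Acute 2.8 Gy replicates 1, 2 and 3, and at most 6 without any other library. Nqo2 lost its call in 13 of 21 cases and Nipal1 in 11. Other filters and pseudocounts moved no total by over 1.5 times, but with no filter the higher genes numbered 125 in place of 69 in the difference, and 692 in place of 398 between irradiated groups.

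No paired analysis was possible because replicate numbers were given in accession order only. The Acute 2.8 Gy group has 3 libraries, which limits the precision.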

Other observations

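A list of 7 structural noncoding RNAs, those of the signal recognition particle, of RNase P and RNase MRP, the Y RNAs and Rn7sk, held 20.7% to 23.8% of Acute 2.8 Gy libraries, against 42.4% to 57.3% of Acute sham, and 31.7% to 49.7% of VarDR 2.8 Gy, against 48.7% to 55.4% of VarDR sham. The Acute 2.8 Gy libraries stood below all others. None of the 7 genes passed in the difference, and their median of -0.83 was 0.20 on the deposited scale.

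Replication-dependent histone genes, whose transcripts lack a poly(A) tail and mark DNA synthesis, gave 16 of 63 higher and 2 lower than sham in the acute arm, and 3 higher in the VarDR arm. Over all genes these shares were 9.76% and 11.1% in the acute arm, and 5.98% in the VarDR arm. None passed in the difference (median 0.52), while 52 were higher on the deposited scale and 7 with the liver covariate.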
